A study of Homo sapiens with 14 samples.

Results

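The comparison described here set 4 xenograft libraries of FASN knockdown UMUC3 cells against 4 of control UMUC3 cells, all grown in mice from cells exposed to 10% cigarette smoke medium (CSM) before engraftment. The libraries were chosen by their titles and are 8 of the 14 in the series. UMUC3 is an established human bladder cancer cell line. The control cells are titled as carrying a control sh construct, and the labels do not say how FASN was knocked down, in how many clones, how the CSM was made or how long the exposure lasted. The other 6 libraries, 3 of control and 3 of FASN knockdown xenografts from cells kept in regular medium, were used as a reference. RNA came from whole frozen xenograft tissue, and only human transcripts were quantified. The labels do not tie libraries to individual mice. P-values below therefore describe the variation among the libraries sequenced, part of which may be technical.

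FASN encodes fatty acid synthase, which joins acetyl and malonyl units into palmitate in the cytosol. The same acetyl-CoA pool feeds the mevalonate pathway, which leads to squalene. Squalene is converted to cholesterol by way of squalene epoxide, which LSS closes into lanosterol. The genes of both routes are targets of the SREBP transcription factors, which are released from the endoplasmic reticulum when membrane lipids run low. In the opposite direction, CPT1A loads long-chain acyl groups onto carnitine for oxidation in mitochondria, and malonyl-CoA, the substrate of FASN, inhibits CPT1A protein.

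The 8 libraries held between 28478738 and 45209466 counts, and 22560 genes were tested in the series. The small cytosolic RNA 7SL took 2.64% to 6.33% of the counts in 6 of them, 16.3% in control replicate 3 and 11.3% in knockdown replicate 2. Long noncoding genes took 2.07% to 3.85% of the counts in the controls and 4.25% to 8.64% in the knockdowns, so the groups did not overlap. Cytosolic ribosomal protein genes took 5.07% to 6.01% and 2.80% to 4.90%, again without overlap. The part of these library differences in the results below was not tested, except where a value without the 2 libraries rich in 7SL is given.

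FASN itself (chromosome 17, 82078333 to 82098332, GRCh38) was at 456, 479, 423 and 366 CPM (counts scaled to each library's total after TMM adjustment) in control replicates 1 to 4 after CSM. In the knockdown libraries it was at 219.55, 166, 301 and 479 CPM, which is 50.9%, 38.5%, 69.8% and 111% of the control mean. The first 3 knockdown libraries lay below all 4 controls, whereas the library labelled FASN knockdown replicate 4 lay at the level of the highest control and so went against its label. The means were 431 ± 48.9 CPM (SD, n = 4) in controls and 291 ± 137 CPM (SD, n = 4) in knockdowns. The log2 fold change was -0.57 (SE 0.28, edgeR adjusted p = 0.288), which missed the threshold, with a 95% interval from -1.15 to 0.02. An exact, two-sided permutation test over the 4 and 4 libraries gave p = 0.114, where 0.0286 is the smallest this design allows. Without replicate 4 the log2 fold change was -0.90 (edgeR adjusted p = 0.108), and the exact permutation p was 0.0571, the smallest possible for 3 against 4. Without both libraries rich in 7SL it was -0.36 (edgeR adjusted p = 0.648). In regular medium the 3 knockdown libraries lay at 121, 99.9 and 132 CPM, and FASN fell by 1.94 on the log2 scale (SE 0.33, edgeR adjusted p = 0.0245).

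**Figure D1:**
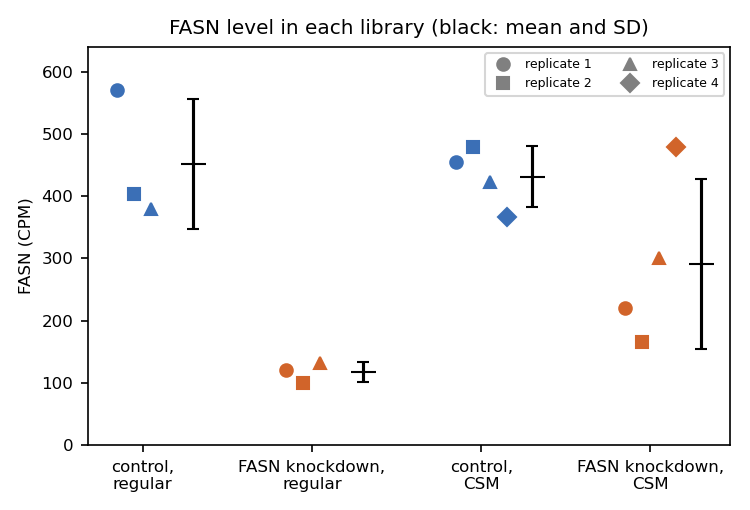
FASN level in CPM (linear axis from 0) in each of the 14 libraries, by group, with the replicate number as the symbol and the group mean and SD in black. After CSM, 3 knockdown libraries lie below all 4 controls and the library labelled replicate 4 lies at 479 CPM, level with the highest control.

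Replicate 4 did not stand with the controls in the genes that separated the groups. In a fit without it, 74 genes were called lower and 69 higher in the knockdown. Replicate 4 lay below all 4 controls in 73 of the 74 and above all 4 in 62 of the 69, which is 98.6% and 89.9%. Over all tested genes it lay below all controls in 24.2% and above all in 24.4%. By these genes the library ranked with the other knockdown xenografts, although its FASN level did not.

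Across all genes, 264 of 22560 (1.17%) were called at an edgeR adjusted p below 0.05, 97 higher (0.43%) and 167 lower (0.74%) in the knockdown. The falls were larger than the rises, with a median log2 fold change of -2.21 among the lower genes and 1.31 among the higher ones. Of the lower genes 92 changed by more than 4-fold, against 10 of the higher ones. The kinds of gene also differed between directions. Protein-coding genes made up 158 of the 167 lower genes (94.6%) and 45 of the 97 higher ones (46.4%), beside 64.4% of all tested genes. That is 1.09% of tested protein-coding genes lower and 0.31% higher, whereas 44 long noncoding genes (0.768%) were higher and 9 (0.157%) lower. The median log2 fold change was -0.16 over all protein-coding genes tested and 0.53 over all 5729 long noncoding genes. The log2 fold change was positive for 36.6% of the former and 75.4% of the latter. The lists below hold protein-coding genes, so their counts of negative genes are to be read beside that 36.6%. At an unadjusted p below 0.05 there were 4167 genes, or 18.5%. In bulk tissue, fewer cells of a type and less RNA per cell cannot be told apart.

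The number of calls depended on single libraries. Without knockdown replicate 4 it was 143 (0.641%), with 69 higher (0.309%) and 74 lower (0.332%), and 125 of these were among the 264. It was 175, 89, 118 and 108 without control replicates 1 to 4, and 86, 141 and 96 without knockdown replicates 1 to 3. In all 8 such fits 61 genes were called, 52 of them lower and 9 higher. Without both libraries rich in 7SL, 80 genes were called (0.359%), 13 of them higher (0.0584%) and 67 lower (0.301%). Upper-quartile scaling, which moved the median of all genes to 0.16, called 282 genes with 58.9% higher, and DESeq2 called 1462 with 51.6% higher, beside 36.7% higher among the 264.

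Several genes of cholesterol synthesis rose. Of its 23 genes, all of which were tested, 4 rose, none fell and 20 were positive on the log2 scale. Over all tested protein-coding genes 0.31% were called higher and 1.09% lower. The median log2 fold change was 0.86, against 0.01 over all tested genes and -0.16 over the protein-coding ones, of which 36.6% were positive. The calls were spread along the pathway, 2 of 10 genes of the mevalonate pathway and 2 of 13 from squalene to cholesterol. MVK, which phosphorylates mevalonate, was at 25.5, 22.1, 21.1 and 16.6 CPM in control replicates 1 to 4 and at 40.5, 45.6, 68.2 and 78.1 CPM in knockdown replicates 1 to 4. LSS, which closes squalene epoxide into lanosterol, was at 83.0, 100.3, 68.2 and 78.8 CPM in the controls and at 136, 189, 199 and 258 CPM in the knockdowns. For HSD17B7, a 3-keto reductase of sterol demethylation, the controls held 11.2, 6.37, 8.71 and 6.47 CPM and the knockdowns 15.1, 20.3, 23.1 and 27.0 CPM. In all 3 genes every knockdown library lay above every control, as in 8.86% of all tested genes, and the highest value belonged to the library labelled replicate 4, whose FASN level was that of the controls.

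MVK rose by 1.45 on the log2 scale (SE 0.25, edgeR adjusted p = 0.0129), LSS by 1.24 (SE 0.22, adjusted p = 0.0128) and HSD17B7 by 1.39 (SE 0.25, adjusted p = 0.0153). MVD, which decarboxylates mevalonate pyrophosphate and is named because it was the remaining called member, rose by 1.42 (SE 0.26, adjusted p = 0.0184). Without replicate 4 all 4 genes passed, with adjusted p from 0.0345 for LSS to 0.0472 for HSD17B7. Without both libraries rich in 7SL, MVK and MVD passed, and LSS (adjusted p = 0.0695) and HSD17B7 (adjusted p = 0.0673) did not. The highest adjusted p with any 1 of the 8 libraries left out was 0.0428 for LSS, 0.0513 for MVK without control replicate 4, 0.0601 for HSD17B7 and 0.061 for MVD, both without control replicate 2. HSD17B7 and MVD also lost their call without control replicate 4, at 0.0539 and 0.0552. HMGCS1, which makes HMG-CoA and was chosen after its values were seen, had a log2 fold change of 1.62 with a wider spread (SE 0.49, adjusted p = 0.105). The mean log2 CPM of the pathway was 5.39, 5.27, 5.86 and 5.24 in control replicates 1 to 4 and 5.69, 6.25, 6.37 and 6.60 in knockdown replicates 1 to 4, so control replicate 3 overlapped knockdown replicate 1. Under the other scalings the count called higher ran from 3 with the length offset or centred TPM to 9 with DESeq2.

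The promoters of the 4 genes that rose are shown because these genes moved together in 1 pathway. Each is given from 250 bases before to 50 after the start, from RefSeq on GRCh38.p14, on the strand of the gene and 5′ to 3′, with capitals on every CCAAT in either orientation (CCAAT or ATTGG). They lie at chr12:109573544-109573843 on the plus strand for MVK, chr16:88663042-88663341 on the minus strand for MVD, chr21:46228725-46229024 on the minus strand for LSS and chr1:162790452-162790751 on the plus strand for HSD17B7. CCAAT boxes are bound by the factor NF-Y, which is known to act beside SREBP at sterol genes.
MVK: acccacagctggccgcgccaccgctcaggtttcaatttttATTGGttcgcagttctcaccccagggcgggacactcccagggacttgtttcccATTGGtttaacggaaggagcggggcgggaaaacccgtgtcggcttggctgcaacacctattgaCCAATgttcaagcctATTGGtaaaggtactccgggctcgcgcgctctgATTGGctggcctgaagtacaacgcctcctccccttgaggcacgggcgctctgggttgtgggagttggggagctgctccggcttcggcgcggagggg
MVD: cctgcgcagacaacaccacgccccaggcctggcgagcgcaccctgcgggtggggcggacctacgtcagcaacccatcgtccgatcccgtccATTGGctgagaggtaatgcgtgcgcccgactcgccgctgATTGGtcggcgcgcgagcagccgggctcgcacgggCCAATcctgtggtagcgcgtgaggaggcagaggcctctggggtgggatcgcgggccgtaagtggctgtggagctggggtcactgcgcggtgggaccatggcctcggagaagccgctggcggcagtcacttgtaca
LSS: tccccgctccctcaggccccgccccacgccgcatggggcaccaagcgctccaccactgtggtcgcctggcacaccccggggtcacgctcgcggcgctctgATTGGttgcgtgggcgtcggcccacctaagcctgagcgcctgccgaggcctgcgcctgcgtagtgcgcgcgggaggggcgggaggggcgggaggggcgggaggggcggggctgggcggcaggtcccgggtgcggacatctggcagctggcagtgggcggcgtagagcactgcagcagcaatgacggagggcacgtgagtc
HSD17B7: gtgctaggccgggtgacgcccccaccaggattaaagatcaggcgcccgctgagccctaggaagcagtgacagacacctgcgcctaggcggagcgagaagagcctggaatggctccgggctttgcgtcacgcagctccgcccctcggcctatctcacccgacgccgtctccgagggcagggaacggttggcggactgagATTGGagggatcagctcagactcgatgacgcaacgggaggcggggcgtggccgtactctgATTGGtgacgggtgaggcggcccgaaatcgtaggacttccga
MVK held 5 such motifs, MVD 3, HSD17B7 2 and LSS 1. Of the 18 cholesterol synthesis genes matched in the RefSeq table, called or not, 12 (66.7%) held at least 1. The share was 36.5% of 11610 promoters of tested protein-coding genes and 4 of 26 (15.4%) of fatty acid oxidation genes. Over all called protein-coding genes with a promoter it was 43.3% of 30 higher and 32.5% of 126 lower genes. The part of these motifs in the rise was not tested. The sterol element searched as TCACNCCAC on both strands was in none of the 18 and in 1.15% of all, which says only that these letters are not in this window. The E-box CACGTG was in 16.7% of the 18 and 9.78% of all. The motifs do not share letters with each other.

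None of the 27 tested genes of fatty acid synthesis was called, and the median log2 fold change was 0.03, with 15 positive. All 7 other scalings and tests called some of them higher, 1 gene in 5 of these and 3 genes with DESeq2 or with the 7SL share as covariate. The median ran up to 0.31 with that covariate and was -0.056 without replicate 4. ACSS2, which makes acetyl-CoA from acetate, missed the threshold, at 46.9 ± 2.29 CPM (SD, n = 4) in controls and 101.2 ± 38.8 CPM in knockdowns (log2 fold change 1.11, SE 0.26, adjusted p = 0.0501). Every knockdown library lay above every control for ACSS2. The stearoyl-CoA desaturase SCD, chosen after its values were seen, had a log2 fold change of 1.59 (SE 0.45, adjusted p = 0.0932). Among 25 SREBP and LXR regulators none was called, and SREBF1, the SREBP gene of fatty acid synthesis, had a log2 fold change of 0.98 (SE 0.27, adjusted p = 0.0817). The median of these 25 genes was 0.076, and -0.11 without replicate 4.

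Fatty acid oxidation genes were lower as a list in every knockdown library. Their mean log2 CPM was between 4.43 and 4.73 in the controls and between 4.09 and 4.25 in the knockdowns. Of 35 tested genes 2 fell, none rose and 28 had a negative log2 fold change, with a median of -0.35. That median compares with -0.16 over all tested protein-coding genes in the same fit, of which 36.6% were positive and 1.09% were called lower. A negative median was not particular to this list. It was -0.63 for nuclear oxidative phosphorylation, -0.78 for cytosolic ribosomal proteins and -0.49 for the proteasome. By contrast it was 0.03 for fatty acid synthesis and 0.86 for cholesterol synthesis. With upper-quartile scaling the list median was -0.19, but there the median of all genes was also higher, at 0.16 instead of 0.01. CPT1A, the carnitine palmitoyltransferase of the outer mitochondrial membrane, was at 331, 386, 435 and 408 CPM in control replicates 1 to 4 and at 175, 195, 151 and 136 CPM in knockdown replicates 1 to 4. The groups were far apart, with the lowest level in replicate 4. Over all tested genes, 7.34% had every knockdown library below every control. CPT1A fell by 1.25 on the log2 scale (SE 0.18, edgeR adjusted p = 0.00323), to 42.1% of the control mean, and was called in all 8 fits with a library left out and without both libraries rich in 7SL. ACAA2, the last thiolase of mitochondrial oxidation, was at 59.4, 84.5, 108 and 82.9 CPM in controls and 27.5, 51.1, 31.7 and 31.7 CPM in knockdowns. It fell by 1.24 (SE 0.24, adjusted p = 0.0239), but was called in 2 of the 8 fits, with an adjusted p of 0.0612 without replicate 4 and up to 0.0791 without knockdown replicate 1. ECH1, an enoyl-CoA isomerase outside the list and chosen after its values were seen, fell by 1.23 (SE 0.20, adjusted p = 0.00823), or at an adjusted p of 0.0604 without both libraries rich in 7SL. DESeq2 called 7 genes of the list lower. In regular medium the oxidation list had a median of 0.06, and CPT1A a log2 fold change of -0.41 (SE 0.20, adjusted p = 0.573). The difference of the CPT1A effect between media was -0.83 (SE 0.27, unadjusted p = 0.007, adjusted p = 0.942) and did not pass.

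Among 13 PPAR regulators and targets, PPARGC1A fell and the other 12 were not called. PPARGC1A encodes PGC-1alpha, a coactivator of mitochondrial genes. It was at 46.4, 3.95, 2.21 and 8.42 CPM in control replicates 1 to 4, and at 0.148, 0.103, 0.168 and 0 CPM in the knockdowns. The groups did not overlap, while control replicate 1 alone was more than 5 times any other control. The log2 fold change was -7.21 (SE 1.16, adjusted p = 0.00751), and the call held in all 8 fits with a library left out. FOXO1, a transcription factor of fasting metabolism named after its values were seen, fell by 2.15 (SE 0.36, adjusted p = 0.0101). In the 22 lipid droplet and triglyceride genes only PNPLA3, a triglyceride lipase and retinyl esterase and a known SREBP target, was called. It rose from 2.20, 2.74, 3.26 and 2.29 CPM to 7.72, 7.21, 12.1 and 9.47 CPM (log2 fold change 1.80, SE 0.27, adjusted p = 0.00503), in all 8 fits with a library left out. The lipid droplet coat gene PLIN2, chosen after its values were seen, had a log2 fold change of -1.21 (SE 0.31, adjusted p = 0.0735).

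**Figure D2:**
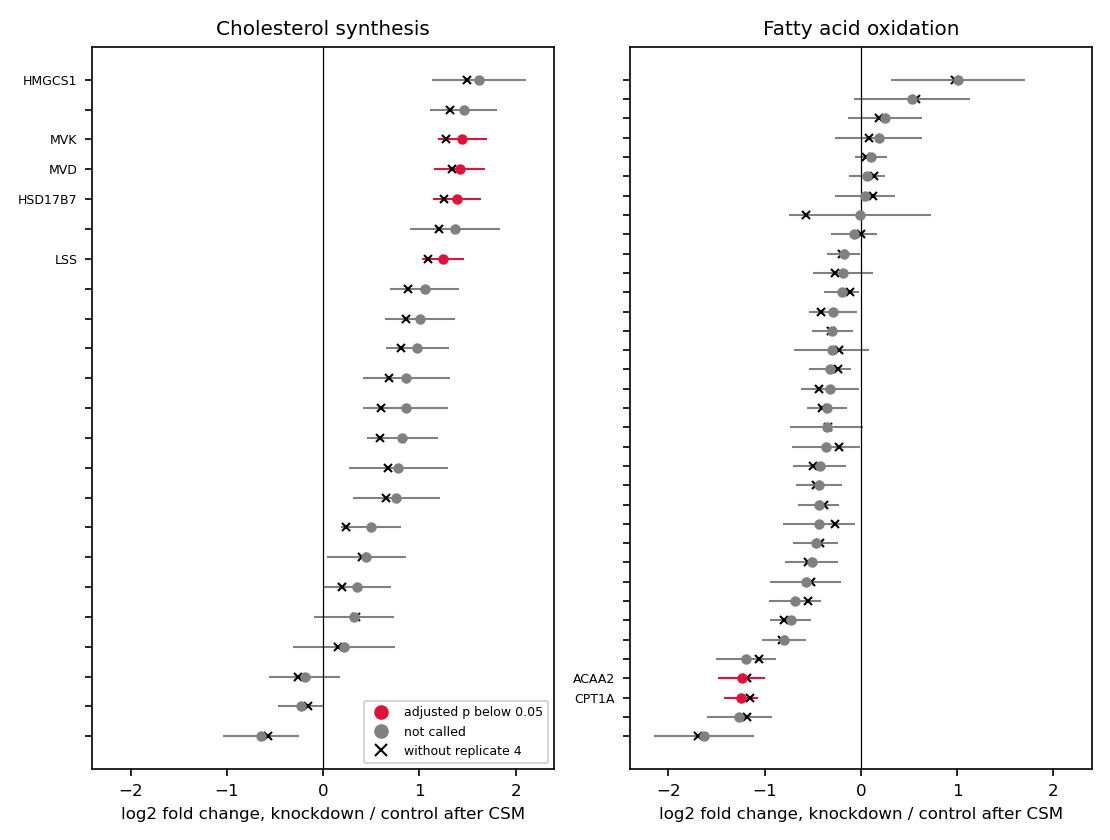
Log2 fold change of knockdown over control after CSM (linear axis) for the tested genes of cholesterol synthesis and of fatty acid oxidation. Points and bars are the estimate and its SE, red marks an adjusted p below 0.05 and crosses the estimate without replicate 4. The called genes and HMGCS1 are named. In the first list 20 of 23 points lie right of 0, and in the second 28 of 35 lie left of it.

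The largest changes were losses of genes that the control xenografts expressed. Among called genes with a mean of at least 5 CPM in 1 group and below 0.5 CPM in the other, all 18 were lower in the knockdown and none higher. AJAP1, an adherens junction protein, was at 22.3, 22.5, 43.2 and 25.8 CPM in controls and at 0.473, 0.239, 0.617 and 0.224 CPM in knockdowns. It had the smallest adjusted p of all genes (log2 fold change -6.19, SE 0.50, edgeR adjusted p = 4.6e-05). LPAR1, a receptor for lysophosphatidic acid, was at 11.4, 10.5, 20.3 and 17.0 CPM in controls and 0.237, 0.239, 0.337 and 0.285 CPM in knockdowns (log2 fold change -5.73, SE 0.63, adjusted p = 0.000618). Of the other 7 tested LPA receptors and enzymes none was called. TRPC4, a cation channel, was at 8.62, 5.07, 10.4 and 9.34 CPM in controls and 0.177, 0, 0 and 0 CPM in knockdowns (log2 fold change -7.53, SE 0.79, adjusted p = 0.000432). In all 3 genes replicate 4 was as low as the other knockdown libraries.

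Other members of the 18 were GULP1, an engulfment adaptor, the basement membrane protein NID1, the axon guidance ligand SLIT2, the zinc finger gene ZNF479, the matrix protein SVEP1 and MTUS1. Their means lay between 5.43 CPM for SVEP1 and 6.96 CPM for GULP1 in the controls and between 0.0736 CPM for MTUS1 and 0.36 CPM for GULP1 in the knockdowns. With each library left out in turn, 16 of the 18 were called in all 8 fits. SLIT2 and GFRA1 were called in 2 of 8, with adjusted p up to 0.0912 and 0.104 without knockdown replicate 1 and of 0.0674 and 0.0791 without replicate 4. TOX, a nuclear factor of lymphocytes among the 12 largest falls, had 13.7 CPM in control replicate 3 and 0.553 to 2.10 CPM in the other controls (log2 fold change -5.80, SE 1.14, adjusted p = 0.0239). Its call was lost without replicate 4 (adjusted p = 0.0725), without knockdown replicate 1 (adjusted p = 0.0868) and in 3 other fits of the 8.

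**Figure D3:**
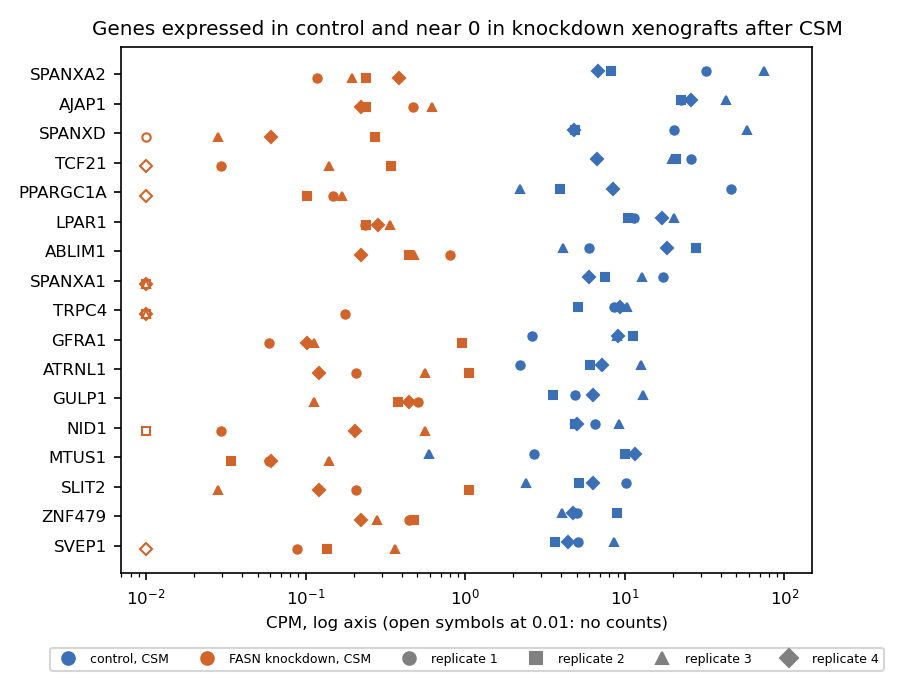
CPM on a log axis of 17 of the 18 called genes with a mean of at least 5 CPM in control and below 0.5 CPM in knockdown xenografts after CSM, with 1 symbol per library and open symbols at 0.01 for libraries without counts. For every plotted gene the 4 knockdown libraries lie left of the 4 controls, the library labelled replicate 4 (diamonds) among them.

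Several called genes were neighbours on a chromosome. Of the 252 called genes with coordinates in GENCODE 29, 62 lay in 26 sets whose starts were within 1 Mb of the next, and 4 sets held 3 or more. Some sets held only falls, some only rises and some both. How many of 252 genes drawn from all tested genes would lie in such sets was not computed. Each interval below runs from the start of the first called gene of a set to the last end of its called genes. The genes at its edges are therefore called by construction, and the share called inside it does not measure a regional density. On the X chromosome, between 141002591 and 141698739, 4 of 6 tested genes fell, all of them SPANX genes, a sperm protein family that some tumours express. SPANXB1 was at 49.4, 19.1, 103 and 17.7 CPM in controls and at 0.562, 1.505, 0.337 and 0.325 CPM in knockdowns (log2 fold change -6.15, SE 0.72, adjusted p = 0.000738). SPANXA1 had 1568 counts in the controls and 0 in the knockdowns, which is at least 529-fold lower with 3 counts over the group as the floor (adjusted p = 0.000157). SPANXA2 fell by 6.96 (SE 0.86, adjusted p = 0.0012) and SPANXD fell by 7.98 (SE 1.05, adjusted p = 0.00174). Over the 5 tested SPANX genes the median log2 fold change was -7.97, or -6.96 with the genes at 0 set to their bound. These genes are near-identical copies, so the division of reads among them is uncertain. PRAME, the called member of 12 tested cancer-testis genes of other families, fell by 2.69 (SE 0.34, adjusted p = 0.00136).

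On chromosome 6, between 133240598 and 133895553, 3 of 4 tested genes fell. TCF21, a mesenchymal transcription factor, was at 26.05, 20.9, 19.8 and 6.69 CPM in controls and at 0.0296, 0.342, 0.140 and 0 CPM in knockdowns (log2 fold change -7.27, SE 0.81, adjusted p = 0.000618). EYA4, a transcriptional coactivator and phosphatase, fell by 3.69 (SE 0.43, adjusted p = 0.000738), and the long noncoding TARID, which overlaps both on the other strand, by 3.61 (SE 0.56, adjusted p = 0.00646). Whether the counting used strand is not given in the sources used here, so reads of TARID and of genes it overlaps cannot be told apart. On chromosome 10, between 114294824 and 116273467, 4 of 8 tested genes were called, 3 lower and 1 higher. ABLIM1, an actin-binding protein, fell by 4.87 (SE 0.62, adjusted p = 0.00136) and ATRNL1 by 3.87 (SE 0.65, adjusted p = 0.0101). GFRA1, a receptor subunit for GDNF, fell by 4.76 (SE 0.99, adjusted p = 0.0331). AFAP1L2, at the edge of the same set, rose by 1.12 (SE 0.22, adjusted p = 0.0239), a call lost without control replicate 1 (0.0504), control replicate 3 (0.0713) or knockdown replicate 2 (0.0694), and at 0.153 without both libraries rich in 7SL.

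The fourth set was the clustered protocadherins on chromosome 5, cell surface proteins that mark neurons and are also expressed in tumours. In its interval 7 of 42 tested genes were called, 6 lower and 1 higher. Of 16 tested beta genes 6 fell and none rose, with a median log2 fold change of -0.96. Over all tested protein-coding genes 1.09% were called lower and the median was -0.16. The mean log2 CPM of the beta genes was 2.82, 2.12, 1.96 and 2.32 in the controls and 1.21, 1.02, 1.17 and 0.91 in the knockdowns, without overlap. PCDHB5 fell from 12.4, 13.8, 9.50 and 13.4 CPM to 3.78, 1.95, 3.00 and 2.70 CPM (log2 fold change -2.10, SE 0.29, adjusted p = 0.00219). PCDHB10 fell by 2.55 (SE 0.41), PCDHB7 by 2.13 (SE 0.35) and PCDHB16 by 2.38 (SE 0.43), with adjusted p of 0.00721, 0.00822 and 0.0161, and like PCDHB5 they were called in all 8 fits with a library left out. PCDHB8 fell by 3.14 (SE 0.59, adjusted p = 0.0197) and PCDHB11 by 2.06 (SE 0.39, adjusted p = 0.0186). Both lost their call without replicate 4, at adjusted p of 0.0673 and 0.0644. Without both libraries rich in 7SL 3 of the 6 calls were left, and PCDHB7 (adjusted p = 0.0595), PCDHB16 (0.0862) and PCDHB8 (0.101) were lost.

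Of 21 tested gamma genes 17 were positive and 1 was called, and their median log2 fold change was 0.76. PCDHGA8 was at 1.33, 1.01, 0.510 and 0.794 CPM in controls and 4.94, 2.29, 3.82 and 2.38 CPM in knockdowns (log2 fold change 1.88, SE 0.40, adjusted p = 0.0392). It was called in 2 of 8 fits with a library left out (adjusted p = 0.126 without knockdown replicate 1 and 0.0549 without replicate 4). Gamma genes share their last exons, so reads can be split among them, and on centred log2(TPM + 1) with limma the log2 fold change of PCDHGA8 was -0.051 (adjusted p = 0.917). On that scale 5 of the 51 tested protocadherins were positive, so the sign of the gamma genes depended on the scale. Of 14 tested alpha genes none was called, and their median was 0.29.

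Among 29 cadherins, teneurins and latrophilins 3 fell and 1 rose, beside 1.09% lower and 0.31% higher of all tested protein-coding genes. ADGRL3, a latrophilin that binds teneurins on other cells, was at 59.4, 43.4, 61.0 and 77.7 CPM in controls and at 1.15, 4.14, 2.33 and 0.264 CPM in knockdowns (log2 fold change -4.96, SE 0.63, adjusted p = 0.00136). TENM1, a teneurin, had 8.15, 13.2, 1.33 and 24.0 CPM in controls and 131, 44.2, 60.6 and 59.4 CPM in knockdowns (log2 fold change 2.66, SE 0.61, adjusted p = 0.0487). The lowest TENM1 value was that of control replicate 3, the library with 16.3% 7SL. The TENM1 call was lost in 7 of 8 fits, with adjusted p up to 0.149 without knockdown replicate 1 and of 0.0744 without replicate 4. CDH12 fell by 1.42 (SE 0.21, adjusted p = 0.0049) and CDH10 by 3.22 (SE 0.74, adjusted p = 0.0487). CDH10 was called in 2 of 8 fits, with adjusted p up to 0.142 without knockdown replicate 1.

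Among the 264 calls rises were fewer and smaller than falls, though the share of rises depended on the scaling and test, as given above. ADAMTSL1, a secreted matrix protein, was at 0.549, 1.44, 1.08 and 0.674 CPM in controls and at 10.9, 2.02, 15.9 and 30.9 CPM in knockdowns (log2 fold change 4.00, SE 0.71, adjusted p = 0.0144). Its knockdown values spread widely and the highest was that of replicate 4. The related protease ADAMTS14 rose by 2.09 (SE 0.39, adjusted p = 0.0184), whereas ADAMTS12 fell by 3.63 (SE 0.67, adjusted p = 0.0175), and none of the other 37 tested matrix remodelling genes was called. These 3 were called in 7 of 8 fits with a library left out, with adjusted p of 0.0528 without control replicate 4 for ADAMTSL1, 0.0534 without knockdown replicate 1 for ADAMTS14 and 0.0618 without knockdown replicate 1 for ADAMTS12. CSMD2, a large complement-domain protein, rose by 1.84 (SE 0.24, adjusted p = 0.00174) and FHAD1 by 1.73 (SE 0.25, adjusted p = 0.00323), both in all 8 fits. FHAD1 was at 9.25, 11.2, 11.7 and 16.3 CPM in controls and 44.0, 32.9, 37.3 and 47.0 CPM in knockdowns.

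Other rises depended on which library was left out. RYR2, a calcium release channel, had 5.41, 9.30, 1.05 and 18.2 CPM in controls and 76.7, 72.2, 50.1 and 31.9 CPM in knockdowns (log2 fold change 2.76, SE 0.61, adjusted p = 0.0449). MYLK, myosin light chain kinase, had 94.2, 107, 13.1 and 87.8 CPM in controls and 272, 304, 291 and 249.5 CPM in knockdowns (log2 fold change 1.89, SE 0.43, adjusted p = 0.0482). Control replicate 3 was the lowest library for both. COL4A6, a type IV collagen chain and the called member of 30 tested collagens, rose by 1.87 (SE 0.43, adjusted p = 0.0482). The integrin ITGAX rose by 1.92 (SE 0.39, adjusted p = 0.0293) and the Wnt antagonist SFRP1 by 1.90 (SE 0.39, adjusted p = 0.0293). AKR1B15, which has a close paralog that reads could be shared with, rose by 1.51 (SE 0.32, adjusted p = 0.0378). With 1 library left out in turn these calls held in 2, 1, 2, 1, 3 and 0 of 8 fits for RYR2, MYLK, COL4A6, ITGAX, SFRP1 and AKR1B15. Their highest adjusted p were 0.113 without control replicate 2, 0.11 without knockdown replicate 1, 0.128 without control replicate 2, 0.103 without knockdown replicate 3, 0.0956 without control replicate 2 and 0.112 without knockdown replicate 3. Without replicate 4 they were 0.0512, 0.0766, 0.0251, 0.0563, 0.0712 and 0.0661, so that of the 6 COL4A6 kept its call.

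Genes of ribosomes and nuclear genes of mitochondrial respiration had lower levels in the knockdown libraries, with 1 call. Over all tested protein-coding genes the median log2 fold change was -0.16 and 36.6% were positive. The 82 tested cytosolic ribosomal protein genes had a median log2 fold change of -0.78, and 81 were negative. Their mean log2 CPM was 8.90, 8.73, 8.89 and 8.49 in controls and 7.31, 7.91, 8.15 and 8.41 in knockdowns, so the groups did not overlap and the gap between control replicate 4 and knockdown replicate 4 was small. The 78 mitochondrial ribosomal protein genes had a median of -0.53, with 77 negative, and the 80 nuclear genes of oxidative phosphorylation had -0.63, also with 77 negative. By complex the medians were -0.58 for complex I, -0.63 for complex II, -0.72 for complex III, -0.69 for complex IV and -0.61 for complex V. Among the genes of these 3 lists only NDUFC1, a complex I subunit, was called. NDUFC1 fell from 20.4, 25.03, 27.8 and 22.2 CPM to 9.37, 8.72, 12.5 and 11.1 CPM (log2 fold change -1.19, SE 0.23, adjusted p = 0.0236). It lost the call without replicate 4 (adjusted p = 0.051), and its highest adjusted p was 0.0825 without knockdown replicate 1. DESeq2 called 12 cytosolic and 6 mitochondrial ribosomal protein genes and 8 oxidative phosphorylation genes lower. The 13 genes encoded by mitochondrial DNA all had positive log2 fold changes, with a median of 0.96 and no call, and their list means overlapped. With the 7SL share as covariate that median was 0.34 and 11 were positive. Knockdown replicate 1, the library with the largest lncRNA share (8.64%), had the lowest mean for each of the 3 nuclear lists, and the part of that composition in these levels was not tested.

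**Figure D4:**
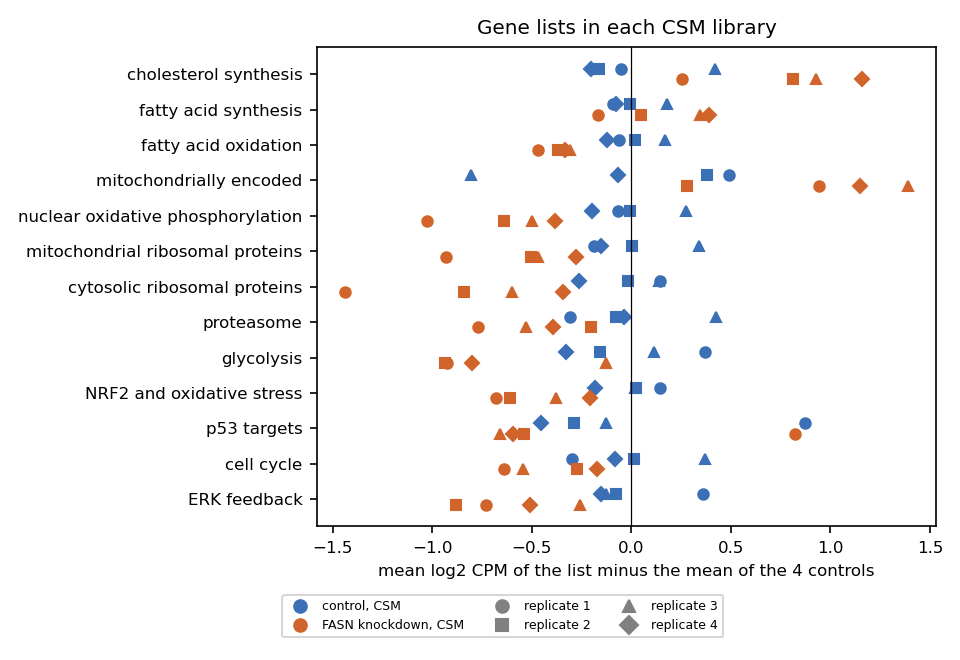
Mean log2 CPM of 13 gene lists in each of the 8 CSM libraries, as a difference from the mean of the 4 controls (linear axis), with 1 symbol per library. The knockdown libraries lie left of all controls for fatty acid oxidation, oxidative phosphorylation, both ribosomal protein lists, the NRF2 list and the ERK feedback list, and the groups overlap in the others.

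The lists tied to smoke and stress gave no call. The 43 tested NRF2 and oxidative stress genes had a median log2 fold change of -0.39, with 39 negative, or -0.22 with upper-quartile scaling. Over all tested protein-coding genes the median was -0.16 and 36.6% were positive. Their mean log2 CPM was between 5.29 and 5.61 in controls and between 4.79 and 5.26 in knockdowns. SLC7A11, the cystine transporter, was at 13.7, 12.5, 19.1 and 8.83 CPM in controls and at 3.52, 2.43, 4.63 and 9.35 CPM in knockdowns. Replicate 4 lay within the controls, as it did for FASN. The log2 fold change of SLC7A11 was -1.44 (SE 0.37, adjusted p = 0.0711) with all libraries and -1.93 (adjusted p = 0.0215) without replicate 4. Of 7 tested aryl hydrocarbon receptor genes, which respond to smoke constituents, none was called, and AHR itself was at 4.68 ± 0.932 CPM (SD, n = 4) in controls and 1.57 ± 0.362 CPM in knockdowns (log2 fold change -1.57, SE 0.41, adjusted p = 0.0735).

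The 24 p53 targets had a median of -0.08, or 0.082 with upper-quartile scaling and 0.058 without replicate 4, and 1 library of each group, control replicate 1 at a mean log2 CPM of 5.45 and knockdown replicate 1 at 5.40, lay above the other 6 at 3.92 to 4.45. The 39 cell cycle genes had a median of -0.41 with 36 negative and the 37 proteasome genes -0.49 with 37 negative, beside 36.6% positive among all tested protein-coding genes. The groups overlapped in both lists. With the 7SL share as covariate these medians were -0.13 with 10 positive and -0.13 with 12 positive. All 23 glycolysis genes had negative values (median -0.73), and knockdown replicate 3 overlapped the controls. The hypoxia, unfolded protein, interferon, NF-kB and immediate early lists had medians of -0.52, -0.34, 0.04, -0.29 and -0.72, also without a call and with overlap, and the interferon median was -0.13 on centred TPM and 0.26 without replicate 4. With the 7SL share as covariate the unfolded protein median was -0.15, the interferon median 0.29 and the immediate early median -1.29 with 2 genes called lower. On centred TPM the NF-kB median was -0.096. The 14 ERK feedback genes had a median of -0.43, and their list means did not overlap between groups. Taken singly, 3 of the 14 had every knockdown library below every control, beside 7.34% of all tested genes. Lists of 28 receptor tyrosine kinases, 63 histone genes and 13 HLA class I and peptide loading genes had medians of -0.16, -0.67 and -0.03 and no call, and the last was 0.12 with upper-quartile scaling, 0.15 with the 7SL share as covariate and 0.12 without replicate 4. The histone median was -1.02 without replicate 4 and -0.29 without both libraries rich in 7SL. The kinase median was -0.015 with upper-quartile scaling and -0.32 on centred TPM.

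Mesenchymal genes were detected in both groups while some epithelial and urothelial markers were at low levels, on a scale not corrected for gene length. VIM was between 1509 and 2772 CPM in the 8 libraries and ZEB1 between 78.1 and 106 CPM. CDH1 reached at most 0.857 CPM, GATA3 2.42 CPM and FOXA1 2.41 CPM. These are chosen members, and their lists differed less. The median level was 13.7 CPM over the tested mesenchymal genes, with 24.7 CPM for markers and 3.99 CPM for regulators. Over the urothelial and epithelial genes it was 2.83 CPM. Within these it was 3.62 CPM for transcription factors, 3.36 CPM for keratins and junctions and 0.272 CPM for uroplakins. Of 26 tested urothelial and epithelial genes only DSP, desmoplakin, was called, with a fall of 3.97 (SE 0.92, adjusted p = 0.0498), and of 16 mesenchymal genes only POSTN, periostin, with a fall of 5.08 (SE 1.11, adjusted p = 0.042). DSP was at 0.752, 1.38, 0.454 and 6.02 CPM in controls, and POSTN at 1.88, 15.8, 2.33 and 54.9 CPM, so the controls themselves varied widely and control replicate 4 was highest for both. DSP was called in 1 of 8 fits (adjusted p = 0.151 without control replicate 4 and 0.102 without replicate 4 of the knockdown), and POSTN in 2 (0.12 without knockdown replicate 1, 0.089 without knockdown replicate 4). POSTN lies beside TRPC4 on chromosome 13.

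Human transcripts of the markers of other tissue cells were low. The summed level of the 12 fibroblast and matrix markers was between 34.96 and 53.1 CPM in controls and between 17.3 and 41.2 CPM in knockdowns. Of its 8 tested members THY1 fell by 1.64 (SE 0.36, adjusted p = 0.0409), a call that held in 1 of 8 fits and was at 0.117 without control replicate 3 and 0.0888 without replicate 4. The 9 endothelial markers summed to between 11.3 and 37.1 CPM in controls and 15.8 and 20.1 CPM in knockdowns, mostly TIE1, with KDR and CLDN5 at 0 in all 8 libraries. The 13 myeloid and leukocyte markers summed to between 21.7 and 41.1 CPM and between 20.1 and 36.5 CPM, with CD3D at 0. The 6 adipocyte markers summed to between 4.33 and 10.3 CPM and between 2.17 and 6.26 CPM, with FABP4 at 0, and the 8 skeletal muscle markers to at most 1.12 CPM. No member of the last 4 lists was called. Mouse transcripts were not quantified, so the amount of mouse tissue is unknown. The tools named in the processing notes include none that separates mouse from human reads. Mouse reads assigned to human transcripts therefore cannot be told apart in these levels.

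In regular medium, where the comparison shares no library with that after CSM, 46 genes were called (0.204% of 22560), and 2049 (9.08%) had an unadjusted p below 0.05. Both comparisons came from the same fit and set the same titled control and knockdown cells against each other. A lasting difference between these cell populations and an effect of FASN therefore cannot be told apart by the overlap. Of the 46 genes 34 were also called after CSM, which is 73.9% of the 46 and 12.9% of the 264, and none had the opposite direction. Of the 167 genes that fell after CSM, 163 (97.6%) had a negative log2 fold change in regular medium, beside 48.6% of all tested genes, and 31 were called there. Of the 97 that rose, 85 (87.6%) had a positive one, beside 51.4% of all, and 3 were called. The median log2 fold change in regular medium was -1.73 for the former and 0.41 for the latter. Large losses such as SPANXA1, AJAP1, LPAR1, TCF21 and GULP1 were called in both media, as were the rises of CSMD2 and COL4A6. CPT1A, PNPLA3, FHAD1 and the 4 cholesterol synthesis genes were called after CSM alone, but the difference between media passed the test for none of them. For the cholesterol list the median in regular medium was 0.88, close to the 0.86 after CSM, without a call.

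**Figure D5:**
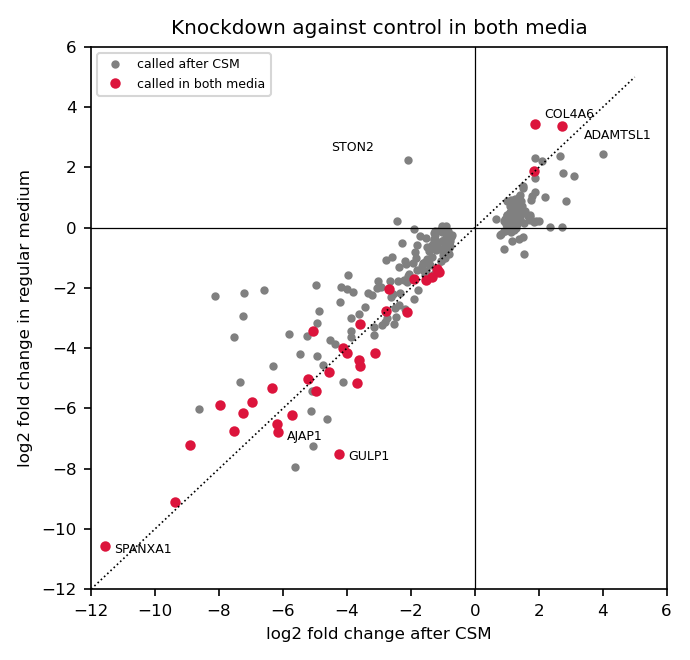
Log2 fold change of knockdown over control in regular medium (vertical, linear axis) against that after CSM (horizontal, linear axis) for the 264 genes called after CSM, with red for the 34 called in both media and a dotted line of equal change. Nearly all points lie in the lower left and upper right quadrants, and STON2 lies apart at the upper left.

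The test of the difference between media, which subtracts the effect in regular medium from that after CSM, called 0 genes with edgeR and 7 with DESeq2. At an unadjusted p below 0.05 there were 1178 genes, or 5.22%. The smallest p belonged to STON2, an endocytic adaptor. It was at 4.57, 3.23, 5.53 and 9.91 CPM in control and 1.92, 1.13, 1.32 and 1.08 CPM in knockdown libraries after CSM, where it fell by 2.09 (SE 0.46, adjusted p = 0.0441). In regular medium it was at 0.498 ± 0.287 CPM (SD, n = 3) in control and 2.36 ± 1.11 CPM (SD, n = 3) in knockdown libraries, and the difference of effects was -4.33 (SE 0.72, edgeR adjusted p = 0.503). The call of STON2 after CSM was lost in each of the 8 fits with a library left out, with adjusted p up to 0.119 without knockdown replicate 3. The next were 3 genes that are named by identifier alone, ENSG00000271533, ENSG00000271204 and ENSG00000280145, with differences of 1.87, 1.65 and 2.18 (SE 0.35, 0.32 and 0.45) and adjusted p of 0.863, 0.863 and 0.942. For FASN the difference was 1.38 (SE 0.42, unadjusted p = 0.00525, adjusted p = 0.942).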

How the data were processed

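The authors deposited Salmon tables with estimated counts and TPM per human transcript. Per the submitters' processing notes, FastQC, cutadapt, Salmon and GRCh38 were used. Their versions and settings and the strandedness are not given in the labels or headers. Per the labels, groups follow the titles. For each library the deposited expected counts were summed to genes and rounded to whole numbers. All 14 libraries entered 1 edgeR 4.0.16 quasi-likelihood fit (R 4.3.3) with group as the only term, after edgeR's filter on low counts (minimum 10 counts, 15 in total) and TMM scaling, and p-values were adjusted by Benjamini-Hochberg over all 22560 genes, with a threshold of 0.05. Levels are CPM on TMM-scaled totals. A mean log2 CPM of a list averages its tested members. The fit was tested on simulated data. Coordinates are from GENCODE 29 on GRCh38.

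Permutation tests used scipy 1.17.1. Alternatives used DESeq2 1.42.0, other scalings and filters, an offset for transcript length, limma 3.58.1 on centred log2(TPM + 1) of the authors' deposited TPM, the 7SL share, a replicate block and each CSM library left out. Intervals and floors cover counting and library spread as these tools model it. The members, lists and tests were chosen with earlier results of these data known. Genes named by rule were FASN, the 12 largest protein-coding rises and the 12 largest falls among called genes at 2 CPM or more without overlap, up to 3 called genes per list by p (or the 1 with the smallest p), the 4 smallest p between media, neighbour sets of 3 or more called genes, and genes at 5 CPM or more in 1 group and below 0.5 in the other. Other named genes were chosen after their values were seen. A few genes are not reported here.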

Additional observations from a re-analysis of the deposited data

Results flagged for a closer look

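Each group of 4 CSM libraries was checked for a library apart from the other 3, as the gap to its nearest neighbour over the whole range of the group, against the critical value for 4 samples, in 264 groups of values. Chance gives about 1 in 20, and 15 were found. Among genes, control replicate 3 was low for MYLK (0.906), and single libraries stood apart among controls for MRPL34 (0.901) and GFRA1 (0.836). Among knockdowns this held for TRPC4 (1, the only library with counts), ANKRD37 (0.868), LIPE (0.863) and ENSG00000280145 (0.911). For list means it held among controls for lipid droplet genes (0.897) and ERK feedback (0.858), and among knockdowns for p53 targets (0.917, knockdown replicate 1), glycolysis (0.835, knockdown replicate 3), mesenchymal genes (0.854) and PPAR regulators and targets (0.833). For library composition it held for the 7SL share among knockdowns (0.990, knockdown replicate 2) and for the protein-coding share among controls (0.951, control replicate 3).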

How the results depend on the processing

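FASN kept its direction and missed the threshold under every alternative, with log2 fold changes from -0.36 to -0.90. The 264 calls (97 higher, 167 lower) were 1462 with DESeq2 (755 and 707), 1178 without a filter on low counts (458 and 720), 435 with the 8 CSM libraries alone (217 higher), 126 with the length offset (45 and 81), 127 with limma on centred log2(TPM + 1) (40 and 87) and 80 without both libraries rich in 7SL (13 and 67), a choice made after the data were seen. Upper-quartile scaling called 166 higher, a filter of 2 CPM 181 higher, and the 7SL share as covariate 258 lower. With 1 library left out the range was 86 to 175 (19 to 69 higher, 65 to 121 lower). Centring on TPM removed a shift of 0.39 in the median of all genes, and the uncentred fit called 35 higher and 24 lower. Between media DESeq2 called 7 (5 and 2) and the fit without a filter 122 (48 and 74). The causes were not tested.

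The replicate numbers did not pair the libraries, with correlations of deviations between -0.21 and 0.09 for the same number, and the replicate block left 59 calls (7 higher, 52 lower). Of 58 named genes that were called, 30 passed with the block, 58 with DESeq2 and 38 without knockdown replicate 4. Signs reversed for PCDHGA8 on centred TPM (-0.051), for TIE1 without both libraries rich in 7SL (0.079) and with 1 library left out (range -0.68 to 0.066), and for TNNT3 on centred TPM (-0.43) and with 1 library left out (range -1.50 to 1.51). The positive TIE1 value was that without control replicate 3 and the negative TNNT3 value that without knockdown replicate 1, and TIE1 and TNNT3 were not called with all libraries.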

Other observations

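The genes below belong to no list and were chosen after their values were seen. Eph receptors, which bind ephrins on neighbouring cells, held 3 of the called falls. Of 12 tested Eph receptor genes 3 fell and none rose, with a median log2 fold change of -0.49, and none of 8 tested ephrin genes was called (median -0.41). Negative values were found for 9 of the 12 and 5 of the 8. Over all tested protein-coding genes 1.09% were called lower, the median was -0.16 and 36.6% were positive. EPHA5 was at 52.2, 77.4, 74.4 and 98.5 CPM in control replicates 1 to 4 and at 3.81, 3.08, 1.82 and 4.13 CPM in knockdown replicates 1 to 4 (log2 fold change -4.55, SE 0.42, edgeR adjusted p = 0.000142). All 4 knockdown libraries were far below the controls, the library labelled replicate 4 among them. EPHA7 fell by 2.76 (adjusted p = 0.0176) and EPHA3 by 4.22 (adjusted p = 0.0265), and both varied widely among the controls. EPHA7 was called in 6 of 8 fits with a library left out, with adjusted p up to 0.0671 without knockdown replicate 1, and EPHA3 in 3 of 8, up to 0.0912 without knockdown replicates 1 or 3.

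Further genes that fell were VGF, SOCS2 and INPP4B. VGF, a secreted neuropeptide precursor, was at 681, 1101, 1918 and 1208 CPM in controls and at 287, 156, 246 and 269 CPM in knockdowns (log2 fold change -2.36, SE 0.40, adjusted p = 0.0108). The lowest VGF control was more than 2 times the highest knockdown library, and without both libraries rich in 7SL the adjusted p was 0.0894. SOCS2, a feedback inhibitor of growth hormone signalling, fell by 2.66 (SE 0.36, adjusted p = 0.00187), and INPP4B, a phosphoinositide phosphatase, fell by 2.79 (SE 0.42, adjusted p = 0.0049).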
